A study of Mus musculus with 24 samples.

Results

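The comparison described here set the 3 RNA-seq libraries labelled KO MPP2 against the 3 labelled KO HSC, across all genes of the count table. These 6 of the 24 libraries of the series were chosen by their labels alone, and no measured value entered the choice. The series holds libraries labelled wild type (WT) or knockout (KO) in 4 sorted populations of mouse blood-forming cells, haematopoietic stem cells (HSC) and multipotent progenitors labelled MPP1, MPP2 and MPP4, with 3 libraries in each of the 8 groups. All mice received tamoxifen, the drug commonly used to switch on an inducible Cre recombinase. The populations were sorted from bone marrow per the protocol, although the tissue field reads blood, and total RNA was sequenced. The labels give no strain, age or Cre promoter and leave the knocked-out gene unnamed. Whether the replicates of a group are different animals is not stated either, so the p-values reflect variation among these libraries, which may be technical. The title of the series concerns RNA held in P-bodies, cytoplasmic granules of repressed RNA, in myeloid leukemia, and the present comparison asks how RNA differs between 2 stages of normal blood formation within the KO-labelled animals.

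HSC sit at the top of blood formation, rarely divide and express receptors and transcription factors that keep them in the marrow niche. Multipotent progenitors have lost long-term self-renewal and divide more. In the scheme in common use, MPP2 cells carry CD150 (the product of Slamf1) and CD48 on their surface, lack the cytokine receptor Flt3 and lean towards megakaryocytes and red cells. MPP4 cells lack CD150, carry CD48 and Flt3 and lean towards lymphocytes.

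The 3 KO HSC libraries held 3360835 to 3667509 counts and the 3 KO MPP2 libraries 2894916 to 3523747. At least 1 count was found for 21477 to 22613 genes in KO HSC and for 22696 to 23529 in KO MPP2, and mitochondrially encoded genes held 1.51 to 1.54% and 2.02 to 2.10% of the counts. Reads on olfactory and vomeronasal receptor genes, which are silent in blood cells, served to estimate a background that follows the length of a gene. It came to 4.598 ± 0.14% of the counts in KO HSC (mean ± SD, n = 3) and 9.19 ± 0.60% in KO MPP2, so weakly expressed genes carry more of it in KO MPP2, and calls are given as deposited and with this background subtracted. Pairs of libraries within these groups differed by more than counting error, which would give a chi-square near 1 per gene where these pairs gave 5.51 to 9.08. In bulk RNA, fewer cells of a type and less RNA per cell cannot be told apart.

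Of the sort markers, Slamf1 and Flt3 RNA went against the label MPP2, while Cd48 RNA was high as in the scheme for both MPP2 and MPP4. Slamf1 was at 284, 222 and 249 CPM (counts per 1000000, on totals scaled by edgeR) in the 3 KO HSC libraries. It was at 10.9, 1.61 and 1.87 CPM in KO MPP2, from 28, 5 and 5 counts. The ratio of estimated background to these counts averaged 100% or more over the 3 libraries, a mean in which libraries of few counts weigh most. With background subtracted the log2 fold change of Slamf1 was -6.43. Flt3 was at 30.7, 33.8 and 28.8 CPM in KO HSC and at 625, 525 and 481 in KO MPP2. Neither gene overlapped between the groups, and the log2 fold changes from KO HSC to KO MPP2 were -5.76 ± 0.43 (SE, n = 3 against 3) and 4.13 ± 0.13, at Benjamini-Hochberg adjusted p of 2.07e-14 and 5.77e-27 (edgeR, quasi-likelihood test). Cd48 RNA was at 0.349, 1.35 and 1.26 CPM in KO HSC and 64.8, 51.8 and 57.4 in KO MPP2, and Cd34, a surface marker gained as stem cells become progenitors, rose by 2.77 ± 0.20.

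RNA of lineage genes was read beside these markers. Gata1, the transcription factor of red cells and megakaryocytes, was at 38.7, 41.6 and 26.5 CPM in KO HSC against 0.776, 7.41 and 4.87 in KO MPP2. The platelet integrin gene Itga2b was at 49.8, 61.1 and 46.4 CPM against 5.04, 28.7 and 3.37. The platelet chemokine Pf4 had 16, 0 and 15 counts in KO HSC and 0 in each KO MPP2 library. Dntt, the polymerase that adds bases at antigen receptor joints, went from 6.27, 1.69 and 0.316 CPM to 425, 418 and 408, and the lymphoid cytokine receptor Il7r from 0, 1.01 and 2.21 to 86.5, 129 and 109. In the libraries labelled KO MPP4, Slamf1 was at 87.5 ± 20.6 CPM (mean ± SD, n = 3), Gata1 at 42.2 ± 5.93, Itga2b at 57.2 ± 24.3 and Flt3 at 84.5 ± 8.12, and in those labelled WT MPP2, Slamf1 was at 7.86 ± 1.31 and Flt3 at 1138 ± 52.3. The libraries are therefore called MPP2-labelled below, and no other cell type name is given to them. Kit, the receptor by which all these populations are usually sorted, was at 1243, 1153 and 1162 CPM in KO HSC and fell to 642, 585 and 705 in the MPP2-labelled libraries.

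**Figure D1:**
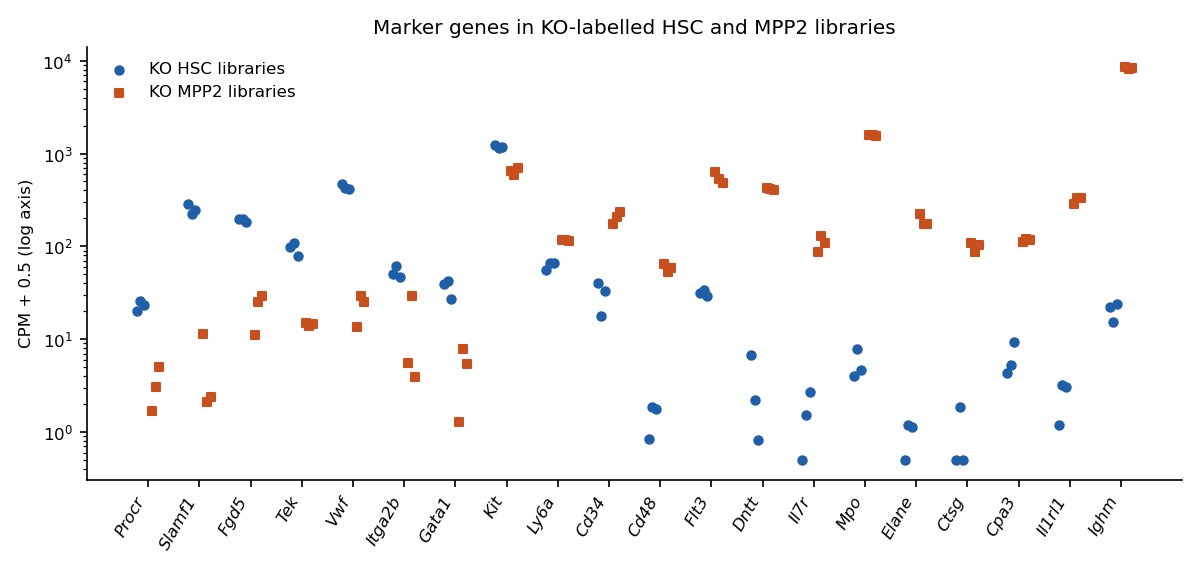
CPM plus 0.5 on a log axis for 20 marker genes, with 1 point per library, blue circles for the 3 KO HSC libraries and orange squares for the 3 KO MPP2 libraries. Slamf1 falls from 222 to 284 CPM to at most 10.9, while Flt3 rises from at most 33.8 CPM to at least 481 and Ighm from at most 23.4 CPM to at least 8155.

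**Figure D2:**
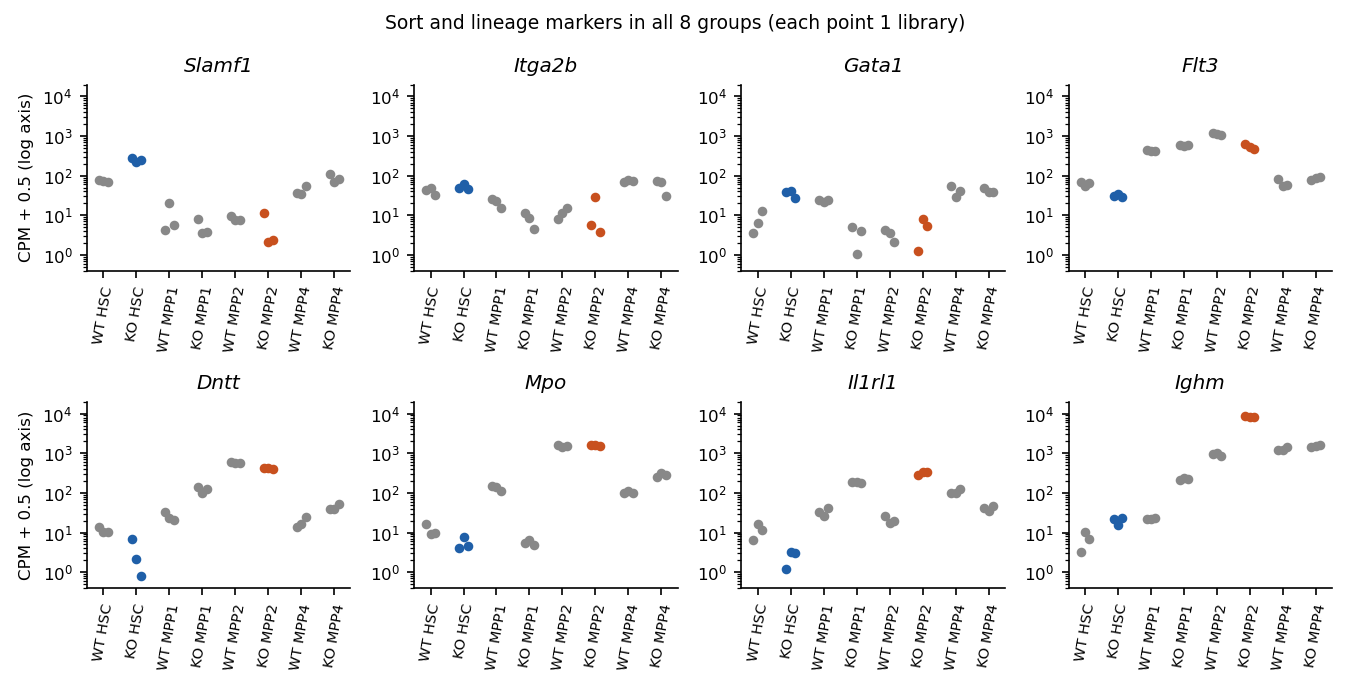
CPM plus 0.5 on a log axis for 8 genes in each of the 24 libraries of the 8 groups, with KO HSC in blue, KO MPP2 in orange and the other groups in grey. The KO and WT libraries labelled MPP2 are low in Slamf1 and high in Flt3 and Dntt, and the KO libraries labelled MPP4 hold 87.5 ± 20.6 CPM of Slamf1.

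Across the table, 2350 of the 21964 genes tested were higher in the MPP2-labelled KO libraries (10.7%) and 1586 were lower (7.22%), at an adjusted p below 0.05. Of the 3936 calls, 3505 had no overlap between the 3 libraries of each group. The call itself favours genes without overlap, so this count adds no separate support. A change of at least 2-fold was found for 1815 of the rises and 843 of the falls. After background subtraction, 879 of 18647 genes rose (4.71%) and 960 fell (5.15%). Of the calls as deposited, 850 rises and 936 falls were also called in the same direction after subtraction, 1 (Ptprn2) was called in the opposite direction and 205 were not tested. Rises were thus 59.7% of the calls as deposited and 47.8% after subtraction, and 47.3% with a fit of only the 6 libraries. The median log2 fold change was 0.147 over all genes tested (0.069 with groups of at most 3 counts per library set to 3), 0.546 among the 9753 genes under 8 CPM in both groups and -0.059 among the 4696 genes of at least 64 CPM in either group. After subtraction the median over all genes was 0.02, so small changes are read against that shift. Counts of calls in the gene lists below stand against 10.7% higher and 7.22% lower over all genes tested. After subtraction they stand against 4.71% and 5.15%.

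**Figure D3:**
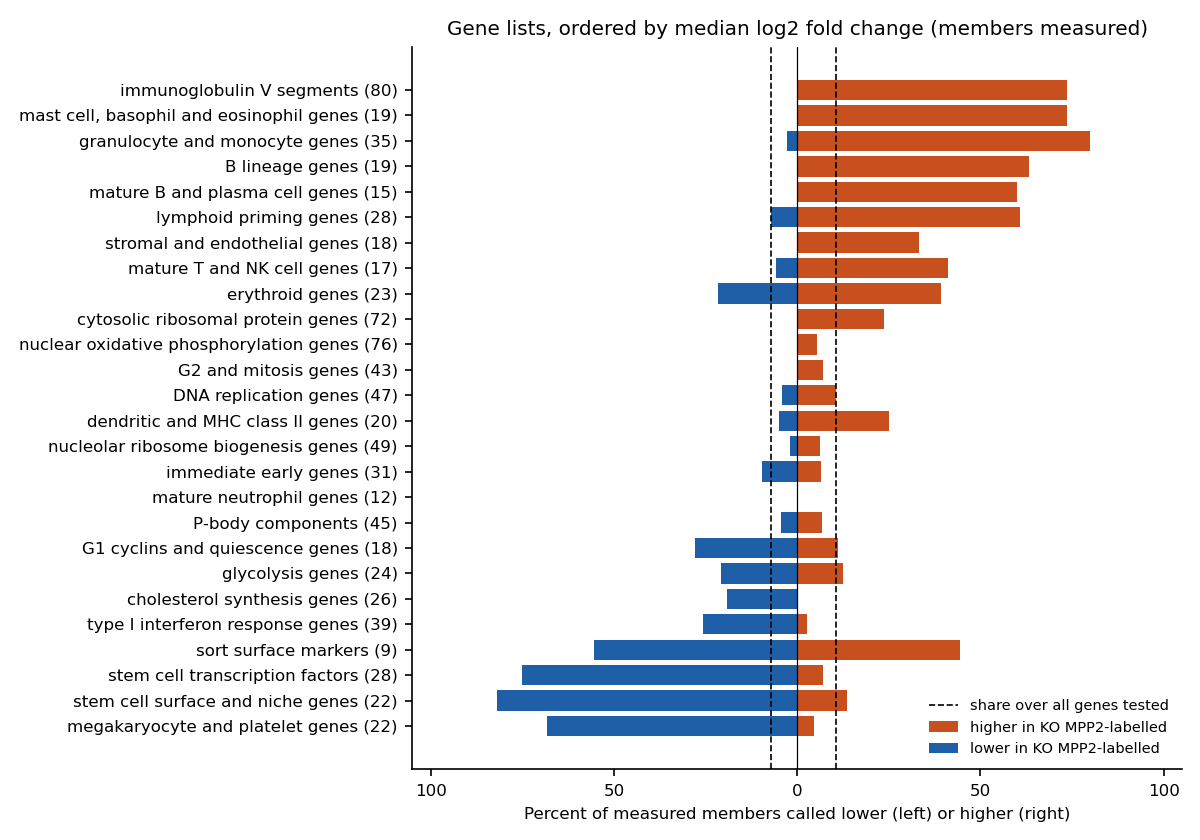
Percent of the measured members of 26 gene lists called lower in KO MPP2 (blue, left) or higher (orange, right), ordered by the median log2 fold change of the list, with dashed lines at the 7.22% and 10.7% found over all genes tested. Lists of megakaryocyte and stem cell genes lie to the left, granulocyte, mast cell and B lineage lists to the right, and lists of DNA replication and mitosis at or below the background share.

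Genes that mark stem cells were lower in the MPP2-labelled libraries. Of 22 measured stem cell surface and niche genes 18 fell and 3 rose, with a median log2 fold change of -1.77, and 15 fell and 2 rose after background subtraction. The 3 that rose were the chemokine receptor Cxcr4, the integrin Itgb3 and Ly6a, which encodes the sort marker Sca-1. The protein C receptor Procr, a marker of the most primitive stem cells, fell from 19.5, 25.3 and 23.1 CPM to 1.16, 2.58 and 4.50. Angpt1, a ligand of the receptor Tek, went from 4378, 4607 and 4743 CPM to 1571, 1620 and 1640 (-1.51 ± 0.06, adjusted p = 8.16e-25, edgeR), and Tek itself from 99.0, 107 and 78.7 to 14.4, 13.2 and 14.2 CPM. Eng, a coreceptor for TGF-beta, and the receptor gene Tie1 fell by 1.73 ± 0.12 and 3.38 ± 0.24 on the log2 scale.

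Transcription factors of stem cells fell with them. Of 28 measured, 21 fell and 2 rose, with a median of -1.55, and 20 fell and 2 rose after subtraction. The 2 that rose as deposited were Gata3 and Tcf4, by 2.00 and 0.57. Mecom, a zinc finger factor required by stem cells, was at 5296, 5205 and 5528 CPM in KO HSC and 1514, 1638 and 1615 in the MPP2-labelled libraries, which is -1.75 ± 0.06 on the log2 scale (adjusted p = 1.18e-25, edgeR). Meis1 went from 2710, 2496 and 2671 CPM to 736, 780 and 753, and Hlf from 1812, 1984 and 1854 to 838, 814 and 803. Mecom, Meis1 and Hlf were lower without overlap and kept at least 736 CPM in each MPP2-labelled library.

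Megakaryocyte and platelet genes fell too, with 15 of 22 measured genes lower, 1 (Itgb3) higher and a median of -2.39 (-1.55 with groups at the floor of 3 counts per library set to it). After subtraction 13 of 20 were lower and 0 higher. Vwf, the platelet-binding clotting protein found in a subset of stem cells, was at 475, 428 and 414 CPM in KO HSC and at 13.2, 28.3 and 24.7 in the MPP2-labelled libraries (-4.30 ± 0.20). The Gata1 cofactor Zfpm1 fell from 652, 526 and 581 CPM to 120, 108 and 88.8. Neither gene overlapped between the groups.

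The largest falls among genes above 3 counts in both groups were spread over several functions. Nupr1, a small nuclear stress protein, went from 265, 180 and 193 CPM to 0.776, 0.322 and 3.00 (-7.29 ± 0.44, adjusted p = 2.11e-17, edgeR). Ache, acetylcholinesterase, went from 115, 147 and 111 CPM to 2.33, 1.61 and 3.00 (-5.74 ± 0.40). The calcium channel Trpc6 fell from 528, 522 and 512 CPM to 17.8, 10.3 and 7.12, and Lhcgr, the receptor for luteinizing hormone, from 623, 623 and 608 to 19.8, 24.5 and 21.7. Tgm2, a transglutaminase, the water channel Aqp1 and the amino acid transporter Slc6a15 fell by 5.55 ± 0.97, 4.83 ± 0.47 and 4.68 ± 0.47. The ratio of estimated background to count was averaged over the 3 MPP2-labelled libraries. It was 100% or more for Trpc6, Tgm2, Aqp1 and Slc6a15 and 98.1% for Nupr1. Libraries of few counts weigh most in this mean, so it is not the share of the summed count. The size of these falls depends on the background. Subtraction moved those of Tgm2, Aqp1 and Slc6a15 to -9.50, -7.13 and -10.28, and those of Trpc6 and Nupr1 to -7.62 and -7.82. These 7 genes, and Slamf1 and Vwf, which met the same rule, were called lower after subtraction too.

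Erythroid genes moved in both directions. Of 23 measured genes 9 rose and 5 fell, with a median of 0.69, and 7 rose and 4 fell after subtraction. The globin gene Hbb-bs was at 20.9, 14.9 and 18.3 CPM in KO HSC and at 69.8, 65.1 and 81.7 in the MPP2-labelled libraries, and Hba-a1 rose by 2.21 ± 0.30. The carbonic anhydrase gene Car2 fell from 97.6, 115 and 91.0 CPM to 17.5, 13.5 and 23.99. The red cell transcription factor Klf1 was at 12.5, 1.69 and 3.79 CPM against 0.388, 2.26 and 0.375, where the groups overlap, and its fall (adjusted p = 0.043, edgeR) was lost in 6 of 13 other settings, among them subtraction (adjusted p = 0.2) and leaving out KO HSC replicate 1, KO MPP2 replicate 1 or KO MPP2 replicate 3 (adjusted p of up to 0.383 over all settings).

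Granulocyte and monocyte genes were higher in the MPP2-labelled libraries. Of 35 measured genes 28 rose and 1, Nupr1, fell, with a median of 3.16 (2.81 with groups at the floor set to it), and 22 rose and 1 fell after subtraction. Mpo, the peroxidase of neutrophil and monocyte granules, was at 3.48, 7.43 and 4.11 CPM in KO HSC and at 1584, 1603 and 1536 in the MPP2-labelled libraries. The difference was 312-fold, or 8.29 ± 0.18 on the log2 scale (adjusted p = 2.06e-33, edgeR), and background made up 0.0551% of the MPP2-labelled count. The granule protease Elane had at most 2 counts in each KO HSC library and 222, 175 and 173 CPM in the MPP2-labelled libraries, at least 190-fold higher against a floor of 3 counts per library. Ctsg, another granule protease, had 0, 1.35 and 0 CPM against 108, 87.0 and 104. F13a1, the coagulation transglutaminase of monocytes, went from 20.2, 12.2 and 27.2 CPM to 524, 514 and 565, and Plac8 from 12.5, 6.76 and 10.1 to 363, 291 and 244. Csf1r, the receptor for the monocyte growth factor, was at 2.44, 5.41 and 4.42 CPM against 48.9, 45.1 and 47.6. Irf8, a transcription factor of monocytes and dendritic cells, rose by 5.23 ± 0.39. In every case the 3 MPP2-labelled libraries lay above the 3 KO HSC libraries.

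Genes that mark later neutrophils held no call with all 6 libraries. Of 12 measured genes of the mature neutrophil list 0 rose and 0 fell by edgeR's adjusted p, by DESeq2 or by limma-voom, and 1 (Chil3) was higher at an unadjusted p below 0.05. Their summed level was 109 to 133 CPM of the unscaled total in KO HSC and 90.5 to 125 in the MPP2-labelled libraries. The defining marker Ly6g had 0 counts in each MPP2-labelled library, and S100a8, which encodes a calprotectin subunit, had 1, 0 and 0. Chil3 had 0, 0 and 3 counts in KO HSC and 4, 2 and 11 in the MPP2-labelled libraries, with an adjusted p of 0.123, and was called higher without KO HSC replicate 3.

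Mast cell, basophil and eosinophil genes rose, 14 of 19 measured with 0 lower and a median of 4.40 (3.34 with groups at the floor set to it), and 10 of 19 after subtraction. Il1rl1, the receptor for interleukin-33 on mast cells and other innate cells, was at 0.697, 2.70 and 2.53 CPM in KO HSC and at 287, 332 and 331 in the MPP2-labelled libraries (7.28 ± 0.31, adjusted p = 5.89e-23, edgeR). In the other KO groups it was at 183 ± 7.59 CPM in MPP1 and 40.5 ± 5.40 in MPP4. Among WT groups it was at 10.9 ± 4.92 CPM in HSC, 32.9 ± 8.0 in MPP1, 20.6 ± 4.26 in MPP2 and 107.6 ± 14.9 in MPP4. The mast cell carboxypeptidase Cpa3 went from 3.83, 4.73 and 8.85 CPM to 110, 119 and 116. The leukotriene enzyme Alox5 went from 13.2, 22.6 and 6.002 CPM to 104, 154 and 98.6. The IgE receptor subunit Ms4a2 and the basophil protease Mcpt8 had at most 3 counts in each KO HSC library and were at least 23.9-fold and 25.6-fold higher. Mean levels of Cpa3, Ms4a2 and Mcpt8 were higher still in KO MPP4, at 138 ± 14.7, 88.3 ± 10.2 and 38.8 ± 15.3 CPM. In KO MPP2 they were 115 ± 4.80, 23.95 ± 6.06 and 25.7 ± 5.94, with overlap for Mcpt8. Alox5 was lower in KO MPP4, at 39.9 ± 5.43 CPM.

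The rise of Il1rl1 differed from that in the WT libraries. There it was 0.91 on the log2 scale, and the interaction, the KO step minus the WT step, was 6.37 ± 0.41 (adjusted p = 9.65e-16, edgeR). The interaction was positive for 11 of the 19 genes of this list, against 9.49% of all genes tested, and negative for 1, against 7.92%. After subtraction it was positive for 2, Il1rl1 and Alox5, against 0.997% of 18647 genes. Since 8 of the 19 measured genes were at the floor in a KO group, several of these values rest on few counts.

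Lymphoid priming genes rose, 17 of 28 measured with 2 (Bcl11a and Foxo1) lower and a median of 1.60, and 14 rose and 2 fell after subtraction. Satb1, a chromatin organizer of early lymphoid cells, went from 10.1, 19.6 and 10.1 CPM to 458, 442 and 421 (5.05 ± 0.19, adjusted p = 6.01e-25, edgeR). The steps of Flt3 and Satb1 were 4.17 and 4.64 in the WT libraries, and the interactions were not called (adjusted p of 0.914 and 0.272). Dendritic and MHC class II genes held 5 rises, 1 fall and 14 genes not called among 20 measured, where 10.7% of all genes rose and 7.22% fell. The share of falls was below that over all genes. After subtraction 3 of 19 rose and 0 fell. The class II gene H2-Aa fell from 10.8, 21.3 and 17.4 CPM to 3.10, 5.15 and 0.750, a call that was lost after subtraction (adjusted p = 0.0919) and without KO MPP2 replicate 3.

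Of B lineage genes 12 of 19 measured rose and 0 fell, with a median of 2.49, and 6 of 19 rose after subtraction. Ighm, the constant region of the IgM heavy chain, was at 21.6, 14.9 and 23.4 CPM in KO HSC and at 8630, 8155 and 8313 in the MPP2-labelled libraries, where it had 22247, 25320 and 22176 counts. The log2 fold change was 8.71 ± 0.15 (adjusted p = 9.56e-37, edgeR). In the WT libraries Ighm went from 6.38 ± 3.66 to 947 ± 73.5 CPM, and the interaction was 1.51 ± 0.23 (adjusted p = 3.20e-06, edgeR). Ighm was also at 1535 ± 89.7 CPM in KO MPP4, 1289 ± 143.5 in WT MPP4, 224.9 ± 17.5 in KO MPP1 and 22.0 ± 0.33 in WT MPP1. The adaptor Blnk of the pre-B cell receptor went from 3.48, 7.43 and 10.7 CPM to 150, 197 and 163, and Jchain, which links IgM and IgA units, from 0, 0.338 and 1.89 to 117, 94.0 and 148. Ikzf3, the Ikaros family factor Aiolos, was at 1.74, 0.676 and 0.316 CPM against 57.0, 47.7 and 76.8.

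Ebf1 and Pax5, the factors that fix B cell identity, were called higher as deposited but not after subtraction. Ebf1 was at 11.1, 28.7 and 7.90 CPM in KO HSC and 62.1, 54.8 and 46.1 in the MPP2-labelled libraries, and 58.7% of the latter count was the estimated background. Its call was lost after subtraction (adjusted p = 0.177, edgeR). Pax5 overlapped between the groups, with 10.8, 4.39 and 11.7 against 18.2, 29.0 and 10.9 CPM, and its call (adjusted p = 0.0303) was lost after subtraction (adjusted p = 0.59) and without KO HSC replicate 2 or KO MPP2 replicate 2. Cd79a, a signalling chain of the B cell receptor, had 0 counts in each KO HSC library and 13.97, 10.95 and 11.25 CPM in the MPP2-labelled libraries. Rag1, which cuts the receptor genes, and the kappa constant region Igkc were listed at 0 in all 24 libraries, as were commonly expressed genes such as Rpl24 and Aldoa, so these zeros are not read as absence of the RNA.

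Immunoglobulin V segments, the germline units joined to make the antigen-binding part of an antibody, were the longest of the 26 lists and held the most rises by number. They took 0.655 ± 0.025% of all counts in the MPP2-labelled KO libraries and 0.00347 ± 0.00062% in KO HSC, with 0.144 ± 0.0092% in KO MPP4 and 0.0263 ± 0.0017% in KO MPP1. In WT they took 0.00889 ± 0.0015% in HSC, 0.00806 ± 0.00043% in MPP1, 0.0431 ± 0.0020% in MPP2 and 0.123 ± 0.016% in MPP4. Of 346 V segments listed, 80 were measured, of which 59 rose and 0 fell, with 50 rises among 77 after subtraction. By share, rises were more frequent in the granulocyte and monocyte list, at 28 of 35. A group was at the floor of 3 counts per library for 72 of the 80, and with those set to the floor the median log2 fold change was 3.78. The filter keeps a gene that is counted in any group, so segments at the floor in KO HSC could be called higher but hardly lower. The 59 rises against 0 falls are partly set by that entry and are not a test of direction. The coding starts of the 4 most counted segments are shown because such segments resemble each other, and how reads shared by relatives were counted is not stated. Capitals mark the bases that differ from, or have no partner in, the most similar other V segment of the reference.

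Ighv7-1: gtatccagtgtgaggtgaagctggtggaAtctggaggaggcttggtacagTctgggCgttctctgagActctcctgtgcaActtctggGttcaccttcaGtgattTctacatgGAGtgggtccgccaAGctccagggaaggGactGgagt
Ighv11-2: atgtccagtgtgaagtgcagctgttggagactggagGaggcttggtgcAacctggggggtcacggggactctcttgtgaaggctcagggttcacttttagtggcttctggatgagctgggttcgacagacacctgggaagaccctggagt
Ighv3-5: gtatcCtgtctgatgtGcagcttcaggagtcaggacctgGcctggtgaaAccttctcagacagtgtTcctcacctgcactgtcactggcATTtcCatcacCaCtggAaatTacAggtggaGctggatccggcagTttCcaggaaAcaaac
Igkv15-103: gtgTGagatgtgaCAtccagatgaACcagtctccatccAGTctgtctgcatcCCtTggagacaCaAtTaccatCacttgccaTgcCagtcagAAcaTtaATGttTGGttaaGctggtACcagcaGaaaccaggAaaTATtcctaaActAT

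Each is the first 150 bases of the V exon, 5′ to 3′, from the GENCODE transcripts of build GRCm38, an earlier build than that of the counts. The heavy chain stretches lie on the minus strand, at chr12:113896575-113896724 for Ighv7-1, chr12:114048398-114048547 for Ighv11-2 and chr12:114262812-114262961 for Ighv3-5, and the kappa stretch on the plus strand at chr6:68437628-68437777. All are exonic and coding. Over the whole V exon Ighv7-1 matched its nearest relative Ighv7-3 at 282 of 317 aligned positions (89%) and Ighv3-5 matched Ighv3-4 at 268 of 310 (86.5%). Ighv11-2 matched Ighv11-1 at 303 of 307 positions (98.7%), so reads of these 2 segments could be split or exchanged by the counting, and the value of Ighv11-2 is uncertain in that respect. Igkv15-103 matched its nearest relative, Igkv11-125, at 226 of 301 (75.1%).

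The counts of the leading V segments were alike in the 3 MPP2-labelled libraries. Ighv7-1 had 11, 10 and 14 counts in KO HSC and 4497, 4840 and 4375 in the MPP2-labelled libraries. Ighv11-2 had 6, 3 and 2 counts against 2175, 2507 and 2013, Ighv3-5 had 3, 4 and 6 against 1870, 2149 and 1894, and Igkv15-103 had 0, 6 and 2 against 1728, 1979 and 1737. Among the 40 segments with at least 50 counts in an MPP2-labelled library, 24 were heavy chain, 16 kappa and 0 lambda, and for 26 the highest of the 3 libraries was within 1.5 times the lowest as a share of all counts. The largest ratios were 3.70 for Ighv1-75 and 3.26 for Igkv7-33, segments named after their values were seen. The 3 leading segments made up 42.6% of the V counts and the 10 leading ones 76.9%. The labels do not say whether these 3 libraries share an animal.

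Levels of single segments varied between groups. Ighv5-16 had at most 2 counts in a WT MPP2 library and 1320, 1486 and 1229 in the MPP2-labelled KO libraries. In WT MPP4 it reached 472. Ighv6-6, Ighv3-6 and Igkv4-68 had at most 3 counts in each KO HSC and each WT MPP2 library and at least 1066, 367 and 530 counts in each MPP2-labelled KO library. They were at least 409-fold, 144-fold and 201-fold higher than in KO HSC, against 3 counts per library. Ighv7-3 and Igkv19-93 were at least 201-fold and 166-fold higher. In all, 21 of the 40 segments had at most 3 counts in each WT MPP2 library, and 6 had at most 3 counts in each library of the 7 other groups. The 40 were picked by their counts in the MPP2-labelled KO libraries, which favours low counts elsewhere. Segments picked by their counts in another group were not examined, so these counts do not show that V segments are particular to KO MPP2. Ighv11-2 and Igkv14-126, which are known together from the phosphatidylcholine-binding antibodies of B-1 cells, reached 1451 and 677 counts in a KO MPP4 library and 2507 and 826 in a KO MPP2 library.

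**Figure D4:**
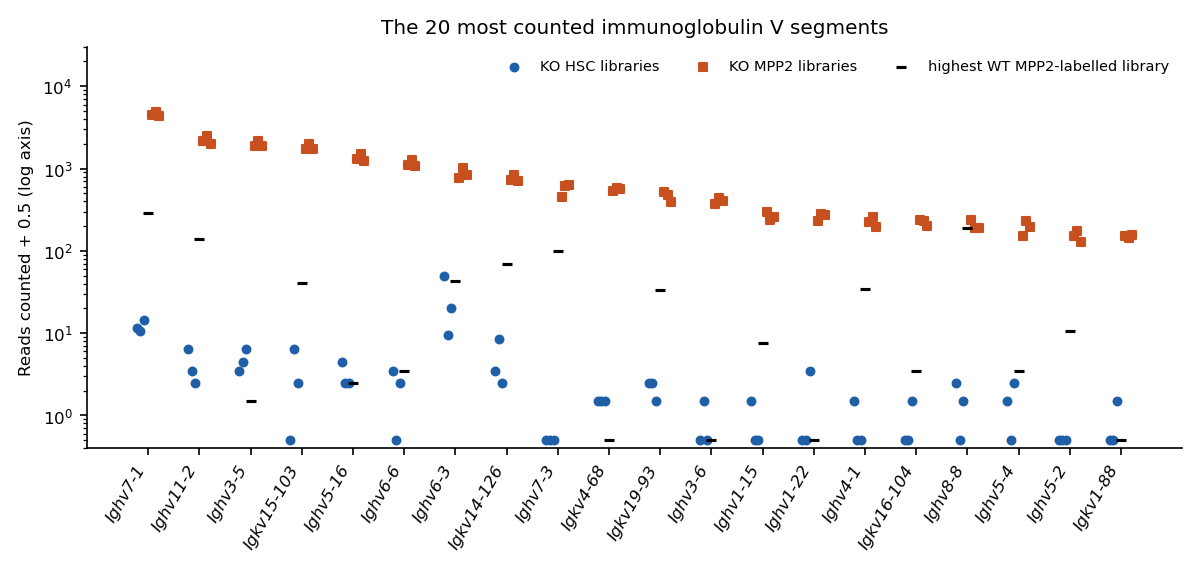
Reads counted plus 0.5 on a log axis for the 20 V segments with the most counts in KO MPP2, with blue circles for the 3 KO HSC libraries, orange squares for the 3 KO MPP2 libraries and a black dash for the highest of the 3 WT MPP2 libraries. The 3 orange points of a segment lie close together, from 4375 to 4840 for Ighv7-1, and the blue points are at most 49.

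Markers of mature B and plasma cells moved with the V segments. Of 15 measured genes 9 rose and 0 fell (3 of 14 after subtraction), and the summed level was 154 to 177 CPM of the unscaled total in KO HSC and 371 to 487 in the MPP2-labelled libraries. The IgA constant region Igha had 5, 11 and 5 counts in KO HSC and 252, 459 and 318 in the MPP2-labelled libraries. Its counts were higher in KO MPP4, at 1850, 1892 and 2043, and in WT MPP4, at 2243, 2390 and 2120. Xbp1, a factor of antibody-secreting cells that many other cells express, rose from 73.9, 79.0 and 74.2 CPM to 127, 149 and 150. The rises of Ighd and Ighg2b were lost after subtraction (adjusted p of 0.0727 and 0.068, edgeR). The B cell marker Ms4a1 was listed at 0 in all 24 libraries. The part of such cells in the Ighm and V segment values was not tested.

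Of mature T and NK cell genes 7 of 17 measured rose and 1 (Cd247) fell, with summed levels of 153 to 179 CPM in KO HSC and 219 to 227 in the MPP2-labelled libraries, and 4 of 14 rose after subtraction. The defining T cell genes Cd3e and Cd3g had at most 5 and at most 3 counts in any of the 6 libraries. Trbc1, a constant region of the T cell receptor, had 0 counts in each KO HSC library and 6.60, 8.05 and 12.4 CPM in the MPP2-labelled ones. Of 18 measured stromal and endothelial genes 6 rose (2 of 15 after subtraction), and their sum went from 159 to 238 CPM in KO HSC to 710 to 829. Most of the sum in the MPP2-labelled libraries was Pecam1, an adhesion molecule of endothelial and blood cells, at 201, 157 and 111 CPM against 667, 804 and 665. Pdgfrb, a growth factor receptor of stromal and mural cells, rose from 22.7, 14.9 and 21.2 CPM to 70.6, 44.8 and 55.9 (adjusted p = 3.85e-05, edgeR) and was also called after subtraction (adjusted p = 0.00136). The endothelial cadherin Cdh5 had at most 1 count in each KO HSC library and 2.33, 7.09 and 4.87 CPM in the MPP2-labelled ones, at least 4.75-fold higher against 3 counts per library (adjusted p = 0.000608). The ratio of estimated background to count averaged 86.4% over the MPP2-labelled libraries, and the call was lost after subtraction (adjusted p = 0.163, edgeR). The part of stromal or endothelial cells in these values was not tested.

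Few genes of DNA replication and mitosis changed between the KO populations, while many rose in the WT libraries. Of 47 measured replication genes 5 rose and 2 fell in KO, and of 43 genes of G2 and mitosis 3 rose and 0 fell, at or below the share over all genes. Without KO HSC replicate 2 the replication list held 2 rises, and without KO HSC replicate 1 or KO MPP2 replicate 3 it held 1 fall. The mitosis list held 5 rises without KO MPP2 replicate 2. From WT HSC to WT MPP2, 31 of the 47 and 36 of the 43 rose and 0 fell in either list, against 11.7% higher and 7.37% lower of all genes tested. The interaction was negative for 19 of the 47 replication genes and 24 of the 43 mitosis genes, and positive for 0. Over all genes tested it was negative for 7.92% and positive for 9.49%. The median interactions of the replication and mitosis lists were -0.84 and -1.02. After subtraction the interaction was negative for 5 replication and 11 mitosis genes, against 1.91% of all genes.

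Mki67, the protein that coats mitotic chromosomes and marks dividing cells, was at 1229, 1195 and 1222 CPM in KO HSC and 1284, 1319 and 1324 in the MPP2-labelled KO libraries. These groups did not overlap but differed by only 0.11 ± 0.07 on the log2 scale (adjusted p = 0.281, edgeR). In WT it went from 470 ± 37.0 CPM in HSC to 1456 ± 7.49 in MPP2, and the interaction was -1.52 ± 0.09 (adjusted p = 1.99e-16). Top2a, the topoisomerase that untangles chromosomes, was at 152, 171 and 206 CPM in KO HSC and 234, 259 and 247 in the MPP2-labelled libraries, against 68.0 ± 20.01 and 267 ± 12.4 in WT. Its rise in KO (0.48 ± 0.14, adjusted p = 0.0103) was lost without KO HSC replicate 1 (adjusted p = 0.0907), and its interaction was -1.49 ± 0.20. The helicase subunits Mcm6 and Mcm7 rose by 0.67 ± 0.16 and 0.61 ± 0.14 in KO, and by 1.43 and 1.17 in WT. The chromatin assembly subunit Chaf1b fell from 225, 200 and 211 CPM to 149, 147 and 114.

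Promoters of these lists were searched because their genes are known to be switched on together in the cell cycle, replication genes by E2F factors and mitosis genes through the CHR element. RefSeq promoters (build GRCm38.p6, from 250 bases before to 50 after the start) were found for 39 of 48 replication genes, 38 of 45 mitosis genes and 26 of 33 immediate early genes. On either strand, TTTGGCGC or TTTCCCGC stood in 11 of 45 replication promoters (24.4%) and in 1.56% of all 32851 promoters. The element TTTGAA stood in 32 of 41 mitosis promoters (78%) and in 17.9% of all. The CRE letters TGACGTCA, the site of CREB factors, stood in 3 of 35 immediate early promoters (8.57%) and in 1.79% of all. The 250 bases before the start of Mcm6 and of Mki67 are shown as examples, with the matches in capitals.

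Mcm6: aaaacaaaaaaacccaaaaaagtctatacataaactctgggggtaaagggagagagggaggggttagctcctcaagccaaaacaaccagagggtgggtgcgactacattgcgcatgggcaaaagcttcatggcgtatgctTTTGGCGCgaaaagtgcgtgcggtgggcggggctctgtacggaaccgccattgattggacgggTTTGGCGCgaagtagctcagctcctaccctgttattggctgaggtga
Mki67: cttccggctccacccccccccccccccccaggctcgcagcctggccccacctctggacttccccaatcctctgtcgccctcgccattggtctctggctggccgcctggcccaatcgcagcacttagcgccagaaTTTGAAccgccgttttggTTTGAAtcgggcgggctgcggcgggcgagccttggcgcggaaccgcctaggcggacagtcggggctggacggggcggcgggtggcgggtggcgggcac

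Both genes lie on the minus strand, and the stretches are chr1:128359706-128359955 for Mcm6 and chr7:135716380-135716629 for Mki67, upstream of the first exon. The Mcm6 stretch holds 2 matches of the E2F letters and the Mki67 stretch 2 of TTTGAA. A match describes the letters only.

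Genes of the G1 phase and of quiescence moved in both directions, with 2 of 18 measured higher and 5 lower, against 10.7% and 7.22% of all genes, and 1 higher and 4 lower after subtraction. The share of rises was near that over all genes. Cdk6, the kinase that takes stem cells out of quiescence, was at 1807, 1868 and 1683 CPM in KO HSC and 2606, 2670 and 2658 in the MPP2-labelled libraries (0.57 ± 0.06, adjusted p = 1.55e-10, edgeR). In WT it went from 661 ± 42.3 to 2142 ± 52.5 CPM, and the interaction was -1.13 ± 0.08. Ccnd3, a D-type cyclin, fell from 943, 885 and 1025 CPM to 523, 475 and 505. Foxo1, a factor of quiescence and stress resistance, fell from 79.5, 92.9 and 86.9 CPM to 57.0, 40.9 and 55.1. The inhibitor Cdkn1a rose from 1.39, 4.73 and 0.632 CPM to 14.7, 22.6 and 22.9, a call that was lost after subtraction (adjusted p = 0.134).

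**Figure D5:**
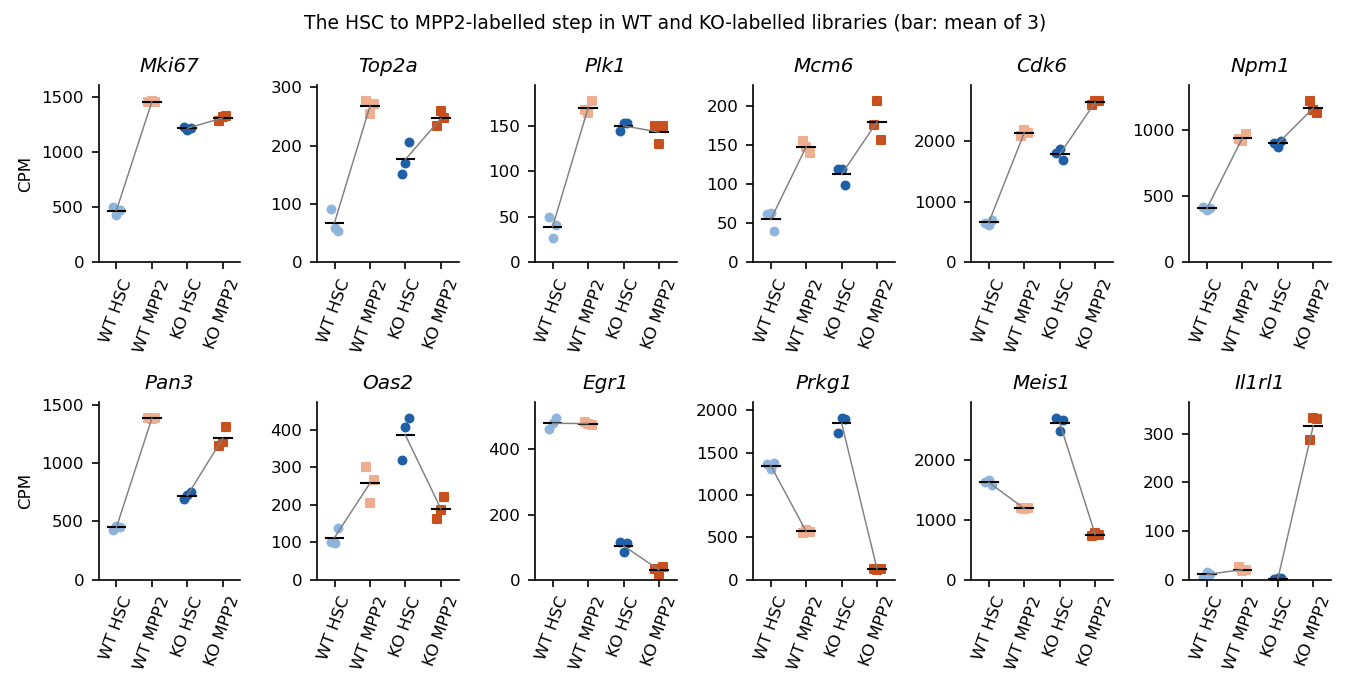
CPM on linear axes that start at 0 for 12 genes in WT HSC, WT MPP2, KO HSC and KO MPP2, with 1 point per library, a bar at the mean of 3 libraries and a grey line for each step. Mki67 goes from 470 to 1456 CPM in WT and from 1215 to 1309 in KO, and Il1rl1 rises in KO to above 287 CPM and in WT to 20.6.

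Some ribosomal protein genes were higher in the MPP2-labelled libraries. Of 72 measured genes of the cytosolic ribosome 17 rose and 0 fell, with a median of 0.38 against 0.147 over all genes, and 21 of 70 rose after subtraction. The count was 10 without KO HSC replicate 1 or KO MPP2 replicate 3 and 11 without KO HSC replicate 2 or 3. Rps16 went from 63.8, 67.2 and 76.5 CPM to 133, 145 and 128 (0.97 ± 0.17, adjusted p = 1.84e-05, edgeR), and Rpl5 from 89.2, 71.3 and 88.5 to 169, 136 and 147. In WT 54 of the 72 rose, against 11.7% of all genes. The interaction was negative for 17 and positive for 0, against 7.92% and 9.49% of all genes, and negative for 2 of 70 after subtraction, against 1.91%. Among 49 nucleolar genes of ribosome biogenesis 3 rose and 1 fell, below the 10.7% and 7.22% of all genes. The nucleolar chaperone Npm1 went from 902, 869 and 917 CPM to 1218, 1149 and 1123. Its step was 0.38 ± 0.07 in KO and 1.20 in WT, with an interaction of -0.83 ± 0.10.

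Metabolic lists differed in their share of calls. Oxidative phosphorylation held few, while the share of falls in glycolysis and cholesterol synthesis lay above that over all genes as deposited. Of 76 nuclear genes of oxidative phosphorylation 4 rose and 0 fell, and of 24 glycolysis genes 3 rose and 5 fell (3 and 3 after subtraction), where 10.7% of all genes rose and 7.22% fell. The rises of oxidative phosphorylation were Ndufa4, Sdhc, Cycs and Atp5h, and of these Sdhc, Cycs and Atp5h lost their calls when single libraries were left out. Hk1, which phosphorylates glucose, fell from 508, 425 and 490 CPM to 282, 355 and 291, while Gpi1, the next enzyme of the pathway, rose from 498, 477 and 442 to 638, 667 and 637. Of 26 cholesterol synthesis genes 5 fell and 0 rose, with a median of -0.19, and 1 fell after subtraction. Srebf2, the transcription factor that switches the pathway on, fell from 484, 416 and 473 CPM to 319, 312 and 284 (-0.59 ± 0.10, adjusted p = 1.53e-05, edgeR). The falls of the enzymes Sqle and Lss were lost after subtraction (adjusted p of 0.13 and 0.12), and the list held 2 falls without KO HSC replicate 1 or 2 or KO MPP2 replicate 2 and 3 without KO HSC replicate 3 or KO MPP2 replicate 3.

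Type I interferon response genes leaned downwards, with 10 of 39 measured lower, 1 higher and a median of -0.59, and 6 lower and 1 higher after subtraction. The antiviral synthetase Oas2 was at 319, 407 and 432 CPM in KO HSC and 161, 186 and 220 in the MPP2-labelled libraries (-1.03 ± 0.16, adjusted p = 3.02e-06, edgeR). In WT it rose from 112 ± 22.9 to 258 ± 48.6 CPM, and the interaction was -2.22 ± 0.23 (adjusted p = 5.50e-10). Oasl2 fell from 298, 275 and 266 CPM to 144, 104.7 and 157 and Stat2, which carries the interferon signal to the nucleus, from 122, 109 and 95.1 to 41.1, 65.7 and 55.8. The member that rose was Ly6e, from 590, 552 and 507 to 720, 850 and 737 CPM. The interaction was negative for 15 of the 39 genes and positive for 0, against 7.92% and 9.49% of all genes tested. After subtraction it was negative for 2, against 1.91% of all genes.

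Immediate early genes, whose transcription starts quickly after a stimulus, held 2 rises and 3 falls among 31 measured, near the 10.7% and 7.22% over all genes. Egr1 was at 115, 85.5 and 112 CPM in KO HSC and 32.2, 18.7 and 39.7 in the MPP2-labelled libraries (-1.80 ± 0.19, adjusted p = 7.42e-10, edgeR). In WT it was at 480 ± 17.0 CPM in HSC and 479 ± 3.42 in MPP2, and the interaction was -1.79 ± 0.25. Fosb fell from 171, 216 and 164 CPM to 76.8, 74.1 and 58.5, with no interaction called (adjusted p = 0.42). The MAP kinase phosphatase Dusp1 fell by 1.37 ± 0.23, whereas its relative Dusp5 rose by 1.32 ± 0.19.

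P-body components were close to the background share, with 3 of 45 measured genes higher, 2 lower and a median of -0.07. Pan3, a subunit of the deadenylase that starts to shorten poly(A) tails, was at 691, 723 and 749 CPM in KO HSC and 1144, 1182 and 1312 in the MPP2-labelled libraries (0.75 ± 0.07, adjusted p = 1.23e-11, edgeR). In WT the step of Pan3 was 1.63, and the interaction was -0.88 ± 0.10. The deadenylase gene Cnot6l and the RNA decay factor Zfp36l1 rose by 0.47 ± 0.11 and 0.80 ± 0.24, and the Argonaute gene Ago3 fell by 0.62 ± 0.19. The call of Ago3 was lost without KO HSC replicate 1 or 3 or KO MPP2 replicate 2, and that of Zfp36l1 without KO HSC replicate 3 or KO MPP2 replicate 1. In WT 21 of the 45 rose, against 11.7% of all genes. The interaction was negative for 12 and positive for 0, against 7.92% and 9.49% of all genes. After subtraction it was negative for 1 and positive for 0, near the 1.91% and 0.997% of all genes. Ddx6, the helicase on which P-bodies depend and the presumed target from general knowledge of the study, was at 67.6, 93.6 and 67.0 CPM in KO HSC and 101, 94.7 and 96.0 in the MPP2-labelled libraries. The difference was 0.35 ± 0.18 (adjusted p = 0.194), and counts over the whole gene neither show nor exclude the loss of an exon.

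Over all genes the step from HSC to MPP2-labelled libraries was set against the same step in WT, which shares no library with it. Of the 2350 genes that rose in KO, 657 also rose in WT, and of the 1586 that fell, 526 also fell, while 558 of the calls were called in the opposite direction in WT. The interaction was positive for 2085 genes and negative for 1740, and after subtraction for 186 and 356. Positive interactions were 54.5% of those calls as deposited, 64.8% with median-of-ratios scaling, 64.9% with DESeq2 and 34.3% after subtraction. The estimated background went from 22.3 ± 1.8% in WT HSC to 11.4 ± 0.21% in WT MPP2 and so changed in the opposite direction to that in KO.

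The genes of the smallest interaction p were abundant, and those described here had negative interactions that were also called after subtraction. Prkg1, a kinase activated by cyclic GMP, went from 1735, 1910 and 1898 CPM to 130, 115 and 130 in KO (-3.89 ± 0.09) and by -1.24 in WT, an interaction of -2.64 ± 0.11 (adjusted p = 6.51e-22, edgeR). Of the MPP2-labelled KO count of Prkg1, 77.3% was the estimated background. Rnf220, a ubiquitin ligase, rose from 1526, 1691 and 1838 CPM to 2025, 2198 and 2143 in KO (0.33 ± 0.06) and by 2.10 in WT. Etv6, a repressor that stem cells need for survival in the marrow, fell from 4631, 4613 and 4519 CPM to 2987, 3185 and 2871 in KO, and rose from 2716 ± 95.5 to 3935 ± 74.4 in WT. Lrmda and Wwox also fell in KO (-0.42 ± 0.06 and -0.92 ± 0.08) and rose in WT (0.98 and 0.78). Mki67 and Angpt1 met the same rule, and the interaction of Angpt1 was -1.25 ± 0.08.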

How the data were processed

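Total RNA of 24 libraries from sorted mouse blood-forming cells was extracted with a miRNeasy Micro kit and made into libraries with NEBNext Ultra II reagents, per the labels' protocols. The authors deposited 1 table of counts per gene, not normalized, for 56748 genes. The submitters' processing notes name build mm39, SAMtools 1.12 and DESeq2, with no role, and the aligner and counter are not given in the sources used here.

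Counts were fitted in R 4.3.3 with edgeR 4.0.16 (quasi-likelihood test) over all 24 libraries and 8 groups, with TMM scaling and the filterByExpr filter, which left 21964 genes. P-values were Benjamini-Hochberg adjusted over all of them, genes were called at 0.05, and 16 residual degrees of freedom remained. The interaction is the KO step (KO MPP2 minus KO HSC) minus the WT step. Background was estimated from the counts per kb of gene span of 1717 olfactory and vomeronasal receptor genes (GENCODE spans on GRCm38, those over 20 CPM left out) and subtracted in proportion to span. Spans were found for 91.8% of genes. The background share given for a gene is the mean of its per-library ratios of background to count, capped at 100%. Libraries of few counts weigh most in it. Genes that share a symbol (959) were kept apart by identifier. Strand use in counting is not stated, so overlapping and antisense genes cannot be told apart.

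The comparison and the 26 gene lists were chosen with earlier results of these data known. Genes were named by rule: the markers, the 10 largest rises and falls among called genes of at least 20 CPM with no overlap and above 3 counts in a library of each group, 6 called genes at or under 3 counts per library in 1 group, the 4 smallest p of each list and the 8 smallest interaction p. Others were chosen after their values were seen, among them Ddx6, Cd3e, Cd3g and the exceptions named within lists. Results of a few genes that met the rule are not reported here. Alternatives were median-of-ratios scaling, no filter, a minimum of 5 CPM in 3 or more libraries, limma 3.58.1 (voom with sample weights), DESeq2 1.42.0, only the 6 libraries, the replicate block, subtraction and leaving out each library. The code was tested on simulated data.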

Additional observations from a re-analysis of the deposited data

Results flagged for a closer look

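Of 132 named genes reported on, 77 had an interaction at an adjusted p below 0.05 by edgeR's quasi-likelihood test, so that the step from HSC to MPP2-labelled libraries differed between the KO and WT labels. For 35 of them the interaction was also called in the same direction after background subtraction, 14 positive and 21 negative. Over all genes tested it was positive for 9.49% and negative for 7.92%, and after subtraction for 0.997% and 1.91%. Many of the 132 were named for a large step or a small p in these data, which favours a call. Their share is therefore not a test. The 35 are given here as the KO step minus the WT step on the log2 scale, as deposited. Subtraction made some of these sizes smaller and others larger. Where a group averaged under 1.5 CPM, the adjusted p is given in place of a fitted size. The causes were not tested.

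Among positive interactions, Il1rl1 stood at 6.37, Alox5 at 3.48, Blnk at 2.25, Igha at 1.94, Ighm at 1.51, Plac8 at 1.38 and Mpo at 1.24. Ikzf3, the factor Aiolos, had an adjusted p of 2.41e-10. Of the V segments, adjusted p was 2.5e-08 for Ighv3-6, 1.38e-07 for Ighv5-16, 0.00134 for Igkv14-126, 0.00204 for Ighv7-1, 0.00274 for Ighv11-2 and 0.00583 for Igkv4-68, by edgeR.

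Among negative interactions, the stem cell genes Meis1, Mecom, Angpt1 and Eng stood at -1.35, -0.86, -1.25 and -0.95. After subtraction these 4 genes stood nearer to no difference, at -0.97, -0.49, -0.87 and -0.57. Ache stood at -4.93, Trpc6 at -1.98 and Car2 at -1.88 (-4.94, -3.20 and -1.57 after subtraction), and Aqp1 had an adjusted p of 2.36e-07 by edgeR. The cell cycle genes Mki67, Top2a and Cdk6 stood at -1.52, -1.49 and -1.13. The interferon response genes Oas2 and Oasl2 stood at -2.22 and -1.20, Egr1 at -1.79, the nucleolar gene Npm1 at -0.83 and the P-body gene Pan3 at -0.88. Prkg1, Rnf220, Wwox, Lrmda and Etv6 stood at -2.64, -1.77, -1.70, -1.40 and -1.14.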

How the results depend on the processing

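As deposited, 2350 genes rose and 1586 fell. Fitting only the 6 libraries gave 1414 rises over fewer genes tested (14184), and background subtraction gave 879 rises, 960 falls, 186 positive and 356 negative interactions (18647 genes tested). Leaving out 1 library of the 6 gave 1768 to 2141 rises, 1284 to 1374 falls, 1822 to 1978 positive and 1500 to 1617 negative interactions. Same-numbered KO HSC and KO MPP2 libraries correlated at -0.012, 0.009 and 0.004 in their deviations from the group means. These values cover all genes tested, where counting noise of weak genes enters, so they cannot tell whether such libraries share an animal. With the replicate block there were 2227 rises, 1555 falls, 1974 positive and 1711 negative interactions. Of 143 named values, 118 kept their call and direction under all alternatives run. Over 1992 combinations of named value and alternative 1908 kept both. The exception in direction was Mmp8, not called in any setting, which ranged from -1.98 (without KO MPP2 replicate 2) to 4.77 when 1 library was left out. Chil3 gained a call without KO HSC replicate 3, and Smc2 gained one in 3 settings. Background subtraction lost 15 calls, limma-voom 4, no filter 4, the 6 libraries alone 3, the replicate block 2, median-of-ratios scaling 1, and leaving out 1 library 6 to 12. Ribosomal protein rises were 10 without the low-count filter and 26 with DESeq2. Mitosis rises were 5 with median-of-ratios scaling and 6 with DESeq2, and cholesterol falls were 3 with that scaling. Interactions of the lists were recomputed only with background subtraction. Depth limits the genes of at most 3 counts per library, for which folds are lower bounds.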

Other observations

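Several genes outside the naming rule, chosen after their values were seen, rose in the KO libraries more than in WT. Il2ra, the alpha chain of the interleukin-2 receptor, was at 1.39, 1.01 and 2.21 CPM in KO HSC and at 165, 98.2 and 185 in the MPP2-labelled KO libraries, without overlap, and its interaction was 5.99 (adjusted p = 1.07e-10, edgeR). It was also at 93.9, 86.4 and 86.5 CPM in the KO MPP1 libraries. Skap1, an adaptor of T cell receptor signalling, went from 6.97, 17.6 and 15.8 CPM to 272, 245 and 225, with an interaction of 4.13. The amino acid transporter Slc7a8 went from 59.6, 45.6 and 38.5 CPM to 322, 375 and 333, with an interaction of 3.67. The ubiquitin ligase Rnf128 went from 2.09, 7.77 and 2.53 CPM to 166, 184 and 130, and its interaction of 5.40 was lost after background subtraction.

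The mitotic kinase Plk1, also outside the rule, was at 144, 153 and 153 CPM in KO HSC and at 149, 130 and 149 in the MPP2-labelled KO libraries, where the groups overlap. In WT it went from 39.2 to 169 CPM on average, and its interaction was -2.18 ± 0.22 (adjusted p = 3.53e-10, edgeR).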
